A study of Danio rerio with 6 samples.

Results

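The matrix and adhesion genes described here are the collagens, laminins, fibronectins, thrombospondins, hyaluronan link proteins, integrins, matrix metalloproteases (MMPs), their TIMP inhibitors and the ADAM proteases of the zebrafish. They were chosen by gene symbol: a probe set entered if the platform annotation gave it exactly 1 gene whose symbol begins with one of these family names. That gave 70 of the 15502 probe sets tested, for 56 of 8793 named genes. The genes were 21 collagens, 7 laminins, 2 fibronectins, 3 thrombospondins, 2 link proteins, 5 integrins, 7 MMPs, 2 TIMPs and 7 ADAMs. A further 2 probe sets that list a member beside other genes were left out.

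The 2 groups were Tg(HSP:EWS-FLI1) embryos, in which a heat shock promoter drives the human fusion oncogene of Ewing sarcoma, and embryos of the wild-type AB strain. Both were warmed to 39 °C for 30 min when they had reached 50% epiboly, the start of gastrulation, and then kept at 28.5 °C for 2 h, so the controls carry the heat shock but not the transgene. There were 3 arrays per group, each from a pool of 40 whole embryos. The labels name the heat shock promoter and no cell type, and nothing on whether every embryo of a pool carried the transgene or which founder line it came from is given in the sources used here. In such pools, fewer cells of a type and less RNA per cell cannot be told apart.

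In animals, the extracellular matrix is a mesh of secreted proteins that holds tissues together and gives migrating cells a surface to pull on. Collagens form ropes and sheets, laminins build the basement membrane under epithelia, and fibronectin forms the fibrils on which mesoderm moves during gastrulation. Integrins are paired alpha and beta receptors that tie these proteins to the actin cytoskeleton, while MMPs and ADAMs cut matrix and cell surface proteins and TIMPs block MMPs. Fibrillar collagens are known mainly from later tissues such as skin, notochord sheath, cartilage and bone, whereas fibronectin and laminin are already laid down in the gastrula.

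All values are log2 RMA values, a log2 scale of array brightness on which 1 unit is a doubling, and all differences are EWS-FLI1 minus control. A probe set was called when limma's p, adjusted by Benjamini-Hochberg over all 15502 probe sets, was under 0.05, and every adjusted p below is of that kind. As a mark of what the array reads without target, the 95th percentile of 44 unspiked control probe sets was 4.19, and a group mean at or under it is said to lie within background. Both groups lay within background at 43 of the 70 matrix probe sets, and at 5710 of all 15502. Brightness depends on the probes, so no gene's level is set against another's.

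Most genes of the gastrula, the labelled stage, lay above background. So did 13 of 24 genes of muscle, cartilage, bone and connective tissue cells, so these readings cannot by themselves fix the stage. Of 19 gastrula genes measured, 17 lay above background, among them vox, sox17, tbxta and the surface keratin gene krt4, while ndr1 and mxtx2 did not. In this list 1 gene rose, tbxta (0.54), and 4 fell, chrd, gsc, noto and sox2 (between -0.91 and -0.87). These counts are 5.26% higher and 21.1% lower, against 5.65% and 7.12% of all 8793 genes. The fall of sox2 is that of its brightest probe set. Other sox2 probe sets differed by -1.19 (called) and -0.15 (not called, adjusted p = 0.555). Of 24 genes of muscle, cartilage, bone and connective tissue cells, 10 lay within background in both groups, including myod1, myog, mylpfa and sp7. In both groups 13 lay above background, including sox9b, acta1a, tnnt3b and runx2a. Of those 24, xirp2a rose (0.93, within background in both groups) and 5 fell (twist1a -0.91, foxc1a -0.84, myf5 -0.65, foxc1b -0.51 and actc1a -0.49). That is 4.17% higher and 20.8% lower, against the same 5.65% and 7.12% of all genes. The largest difference in that list, -1.26 in sox9b, was not called (adjusted p = 0.0569). Its control arrays read 6.01, 5.79 and 7.39, with control replicate 3 the highest. The call of myf5 was lost after dropping control replicate 1, that of actc1a after dropping EWS-FLI1 replicate 1 or 2, and that of foxc1b after dropping control replicate 1 or any single EWS-FLI1 array (adjusted p up to 0.104). The arrays correlated at 0.998 within EWS-FLI1, at 0.991 to 0.994 within controls and at 0.982 to 0.988 between the groups. Array weights, by which limma counts noisier arrays less, were 1.4 to 1.58 in EWS-FLI1 and 0.499 to 0.916 in controls. Control replicate 3 had the lowest, and the main fit used no weights. Over the matrix probe sets the median SD was 0.118 in EWS-FLI1 and 0.137 in controls. The GAPDH control probe sets gave a 3′ minus 5′ difference, which is higher where RNA is less complete, of 1.21 ± 0.10 in EWS-FLI1 and 0.83 ± 0.12 in controls (SD, n = 3 each, exact permutation p = 0.1, the smallest possible). The same measure of the acta1 control probe sets ran the other way, with -0.42 ± 0.07 in EWS-FLI1 and -0.11 ± 0.27 in controls (SD, n = 3 each, exact permutation p = 0.1). The part of either in the results below was not tested.

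EWS-FLI1 embryos had 9 matrix probe sets called higher and 6 called lower, and 55 were not called. The called share was 21.4%, against 11.8% of all probe sets. Higher calls made up 12.9% of the matrix probe sets, against 5.38% of all. Lower calls made up 8.57%, against 6.46% of all. The median difference was -0.02 over the matrix probe sets and 0.00 over all. In terms of genes, counting only the brightest probe set of each, 8 rose and 6 fell of 56, which is 14.3% and 10.7% of them, against 5.65% and 7.12% of all 8793 genes. The groups did not overlap at 26 of the 70, 11 higher and 15 lower, while over all probe sets 14.1% were higher, 14.8% lower and 29.0% either way without overlap. With the deposited values further scaled to the spiked control probe sets, the split was 7 higher and 8 lower among matrix probe sets. Over all probe sets it was 619 higher and 1334 lower, against 834 and 1001 without this scaling. The scaling was laid over the deposited normalization and did not replace it. Without any 1 EWS-FLI1 array the lower calls numbered 3, and without EWS-FLI1 replicate 1, EWS-FLI1 replicate 3 or control replicate 1 the raised genes numbered 5.

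**Figure D1:**
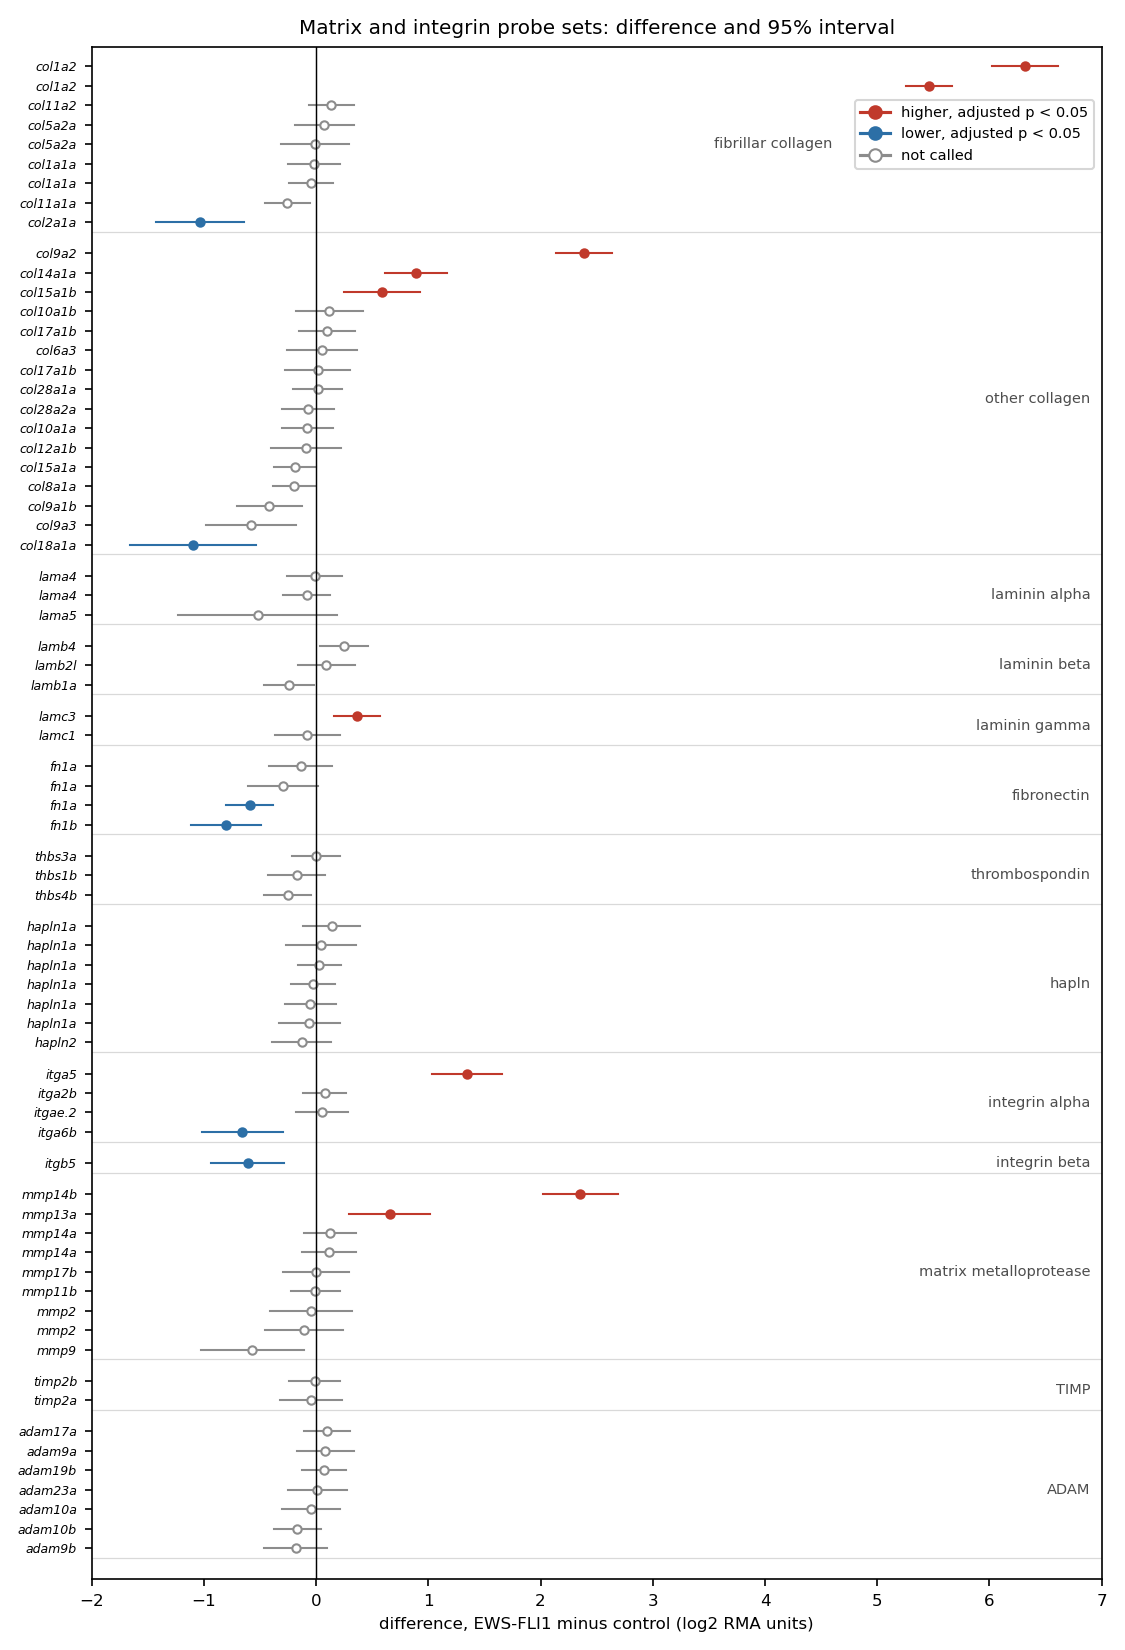
Difference of each of the 70 matrix probe sets (x axis, EWS-FLI1 minus control, log2 RMA units) with its 95% interval from limma, by family down the page. Filled red points were called higher (9), filled blue points lower (6) and open points were not called (55); both col1a2 probe sets lie above 5 and no other exceeds 2.39.

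The largest fitted change of the families was in col1a2, which encodes a chain of type I collagen, the main collagen of skin and bone. Its brighter probe set read 9.94, 9.73 and 10.25 on the EWS-FLI1 arrays, against 3.61, 3.68 and 3.68 on the control arrays. A second probe set read 8.52, 8.34 and 8.41 in EWS-FLI1, against 3.04, 2.90 and 2.94 in controls. Every control array was within background and every EWS-FLI1 array far above it. The differences were 6.32 (SE 0.13, adjusted p = 6.1e-08) and 5.46 (SE 0.089, adjusted p = 1.7e-08). Against the background level this is at least 54.9-fold and at least 18.7-fold higher. Fitted over control values that lie within background, the folds were 79.7 and 44.1.

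The partner chain of type I collagen was not called. In zebrafish, type I collagen is assembled from the products of col1a2, col1a1a and col1a1b, and only the first pair of these is among the genes measured. col1a1a read 3.80, 4.0 and 3.85 in EWS-FLI1, against 3.82, 3.83 and 4.06 in controls. Its difference was -0.02, with a 95% interval of -0.25 to 0.21 (adjusted p = 0.945). The second col1a1a probe set differed by -0.05 (95% interval -0.24 to 0.15). All 4 means lay within background, so a low level of col1a1a in either group would not be seen. Both col1a1a probe sets carry the manufacturer's mark for probes shared by more than 1 transcript. The col1a2 intervals, 6.02 to 6.61 and 5.26 to 5.67, lie far from those of col1a1a.

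Among the other fibrillar collagens, col2a1a fell. It encodes the chain of type II collagen, the collagen of cartilage and of the notochord sheath. It read 3.20, 3.26 and 3.24 in EWS-FLI1, against 4.33, 3.85 and 4.63 in controls. The groups did not overlap, and the EWS-FLI1 mean lay within background while the control mean was just above it. The difference was -1.04 (SE 0.17, adjusted p = 0.0059), at least 1.05-fold lower when set against the background level. The minor fibrillar chains, which co-assemble with types I and II and set fibril width, were not called: col11a1a differed by -0.26 (95% interval -0.46 to -0.06), col11a2 by 0.14, and the brighter col5a2a probe set by 0.07.

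Among the collagens that sit on fibrils rather than forming them, col9a2 and col14a1a rose. col9a2, a chain of type IX collagen that decorates type II fibrils, read 6.91, 6.76 and 6.61 in EWS-FLI1, against 4.22, 4.41 and 4.49 in controls. It rose by 2.39 (SE 0.11, adjusted p = 5.6e-06), a 5.23-fold change. The other chains of type IX measured were not called. col9a3 read 3.16, 3.43 and 3.27 in EWS-FLI1, against 4.25, 3.50 and 3.85 in controls, a difference of -0.58 (adjusted p = 0.0689). col9a1b differed by -0.42 (adjusted p = 0.0735). In both, the EWS-FLI1 arrays lay below every control array, while all 4 group means were within background. col9a3 was called lower without control replicate 2 (adjusted p = 0.00716), with array weights (adjusted p = 0.0333) and with spiked scaling (adjusted p = 0.0344). col9a1b was called lower with spiked scaling (adjusted p = 0.0385) and with a replicate block (adjusted p = 0.046).

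Of the same class of fibril-associated collagens, col14a1a rose and col12a1b was not called. col14a1a read 5.89, 5.80 and 5.87 in EWS-FLI1, against 4.73, 5.20 and 4.97 in controls. The difference was 0.89 (SE 0.12, adjusted p = 0.0025), or 1.85-fold. col12a1b was bright in both groups, with means of 8.78 in EWS-FLI1 and 8.87 in controls, and differed by -0.09 (95% interval -0.41 to 0.22).

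Types XV and XVIII collagen belong to basement membrane zones, and the C-terminal piece of type XVIII is released as endostatin, an inhibitor of vessel growth in mammals. col18a1a fell: it read 6.48, 6.87 and 6.64 in EWS-FLI1, against 7.83, 7.17 and 8.29 in controls. The difference was -1.10 (SE 0.25, adjusted p = 0.0217), 2.14-fold lower, with an SD of 0.56 among the controls and 0.20 among the EWS-FLI1 arrays. It was no longer called after dropping control replicate 1 or any single EWS-FLI1 array (adjusted p up to 0.101). col15a1b read 3.94, 3.90 and 4.13 in EWS-FLI1, against 3.31, 3.16 and 3.74 in controls, all within background, and rose by 0.59 (adjusted p = 0.0357). It was no longer called with spiked scaling, nor after dropping control replicate 1, control replicate 2 or any single EWS-FLI1 array (adjusted p up to 0.147). Its brighter paralog col15a1a differed by -0.19 (95% interval -0.38 to -0.001, adjusted p = 0.201).

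The remaining collagens were within background in both groups and not called. They were col10a1a and col10a1b of growing cartilage, the hemidesmosome collagen gene col17a1b, col6a3 of bead-like microfibrils, col8a1a, col28a1a and col28a2a. Their differences lay between -0.20 (col8a1a) and 0.12 (col10a1b). Over all 21 collagen genes, 4 rose, 2 fell and 15 were not called, with a median of -0.02. These counts are 19.0% higher and 9.52% lower, against 5.65% and 7.12% of all genes.

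**Figure D2:**
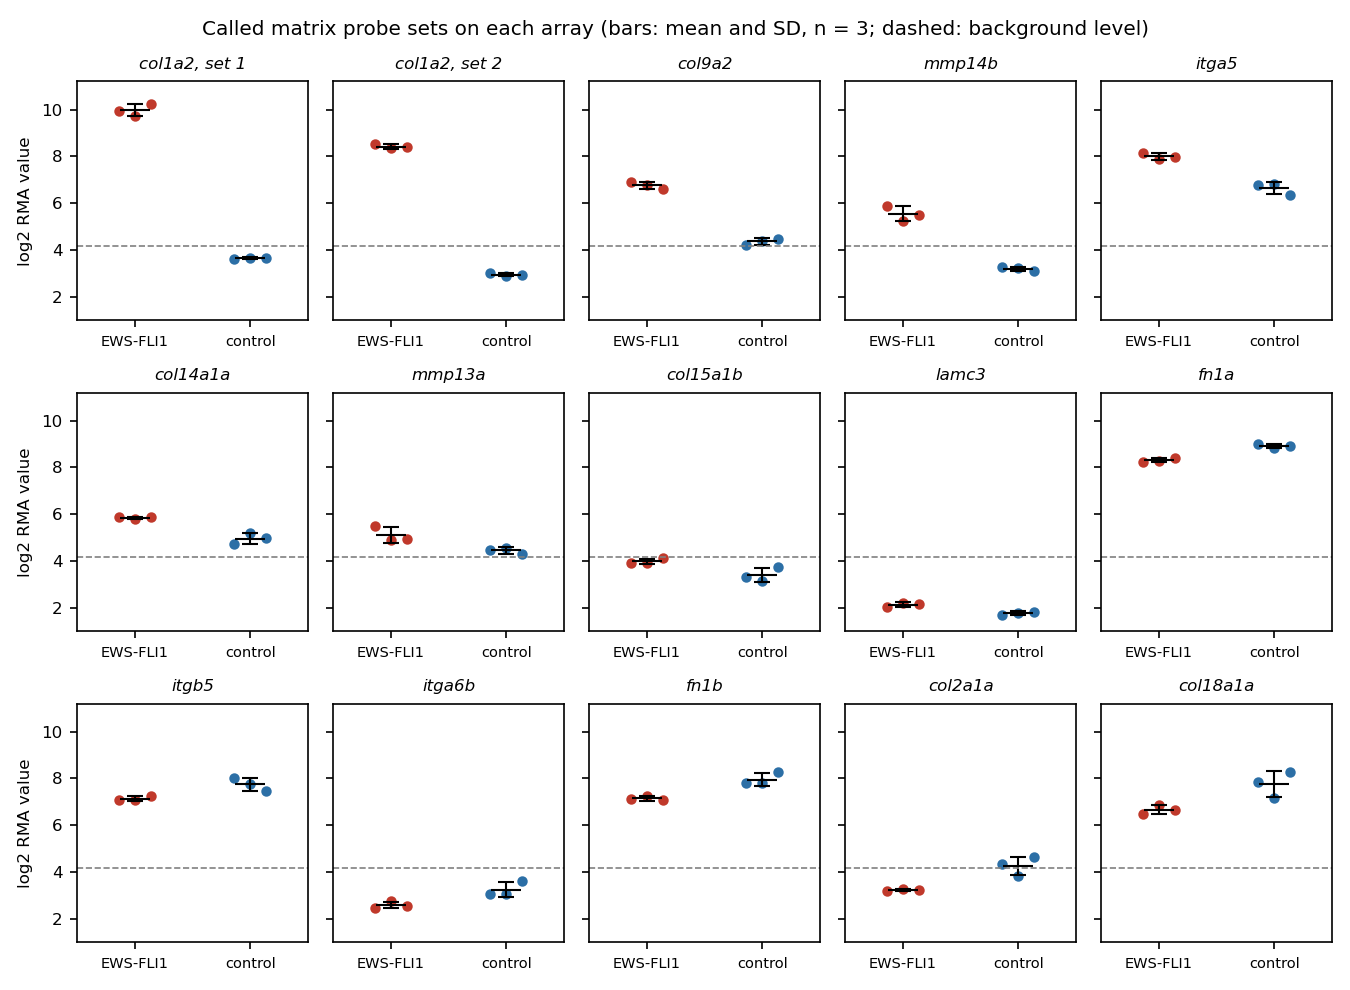
Log2 RMA values (y axis) of the 15 called matrix probe sets on each array, EWS-FLI1 left and control right; points are arrays, bars the mean and SD (n = 3) and the dashed line the background level of 4.19. The groups do not overlap in any panel. The col1a2 and mmp14b control arrays and all lamc3, itga6b and col15a1b arrays lie below the dashed line. So do the col2a1a EWS-FLI1 arrays and control replicate 2 of col2a1a.

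Laminins are trimers of an alpha, a beta and a gamma chain. The bright laminin genes of the gastrula were not called. lamb1a, whose loss disrupts the notochord in zebrafish, read 10.27, 10.35 and 10.35 in EWS-FLI1, against 10.62, 10.40 and 10.68 in controls. Its difference was -0.24 (95% interval -0.47 to -0.02, adjusted p = 0.162), and it was called without control replicate 2 (-0.33, adjusted p = 0.0475). Its partner chain gene lamc1 differed by -0.08 (95% interval -0.37 to 0.21). lama5, an alpha chain of skin and fin basement membranes, read 5.04, 5.10 and 5.19 in EWS-FLI1, against 5.21, 5.17 and 6.51 in controls. Control replicate 3 stood apart there: the difference was -0.52 with it (95% interval -1.23 to 0.19) and -0.08 without it. Both lama4 probe sets differed by less than 0.1.

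Of the dim laminin genes, lamc3 rose by 0.36 (SE 0.09, adjusted p = 0.0321), from arrays that all lay within background: 2.04, 2.23 and 2.16 in EWS-FLI1, against 1.70, 1.80 and 1.84 in controls. That call was lost with a replicate block (adjusted p = 0.0611), with spiked scaling, and after dropping control replicate 1 or any single EWS-FLI1 array (adjusted p up to 0.131). lamb4 differed by 0.25 (adjusted p = 0.139) and was called without control replicate 3 (0.32, adjusted p = 0.0421), and lamb2l differed by 0.09. Of the 7 laminin genes, 1 rose, 0 fell and 6 were not called. These counts are 14.3% higher and 0% lower, against 5.65% and 7.12% of all genes.

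Fibronectin fell in both of its zebrafish copies. fn1b read 7.12, 7.26 and 7.07 in EWS-FLI1, against 7.80, 7.79 and 8.27 in controls. The difference was -0.80 (SE 0.14, adjusted p = 0.0066), or 1.75-fold lower. The bright fn1a probe set read 8.25, 8.29 and 8.42 in EWS-FLI1, against 9.01, 8.82 and 8.91 in controls. It fell by 0.59 (SE 0.092, adjusted p = 0.0043), or 1.51-fold. Both groups were well separated and far above background in these 2 probe sets. The other fn1a probe sets, of which one was within background and the other close to it, differed by -0.30 and -0.14 and were not called.

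The integrin subunit that pairs with beta 1 as the main fibronectin receptor moved the other way. itga5 read 8.16, 7.88 and 7.96 in EWS-FLI1, against 6.77, 6.83 and 6.37 in controls. The difference was 1.34 (SE 0.14, adjusted p = 5.9e-04), or 2.54-fold higher. The itga5 interval was 1.03 to 1.66, against -1.12 to -0.49 for fn1b and -0.80 to -0.38 for the bright fn1a probe set. The difference between the receptor and its ligand was not itself tested, and no beta 1 subunit has a probe set annotated to it alone.

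The other integrins fell or were not called. itgb5, which pairs with alpha V as a receptor for vitronectin, read 7.07, 7.09 and 7.26 in EWS-FLI1, against 8.04, 7.75 and 7.46 in controls. It fell by 0.61 (SE 0.14, adjusted p = 0.0264), and the call was lost after dropping control replicate 1 or any single EWS-FLI1 array (adjusted p up to 0.113). itga6b, a laminin receptor subunit, fell by 0.66 (adjusted p = 0.0288) with all arrays within background, and its call was lost after dropping any single EWS-FLI1 array (adjusted p up to 0.126). The thrombocyte integrin gene itga2b differed by 0.08 and itgae.2 by 0.05, both within background.

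**Figure D3:**
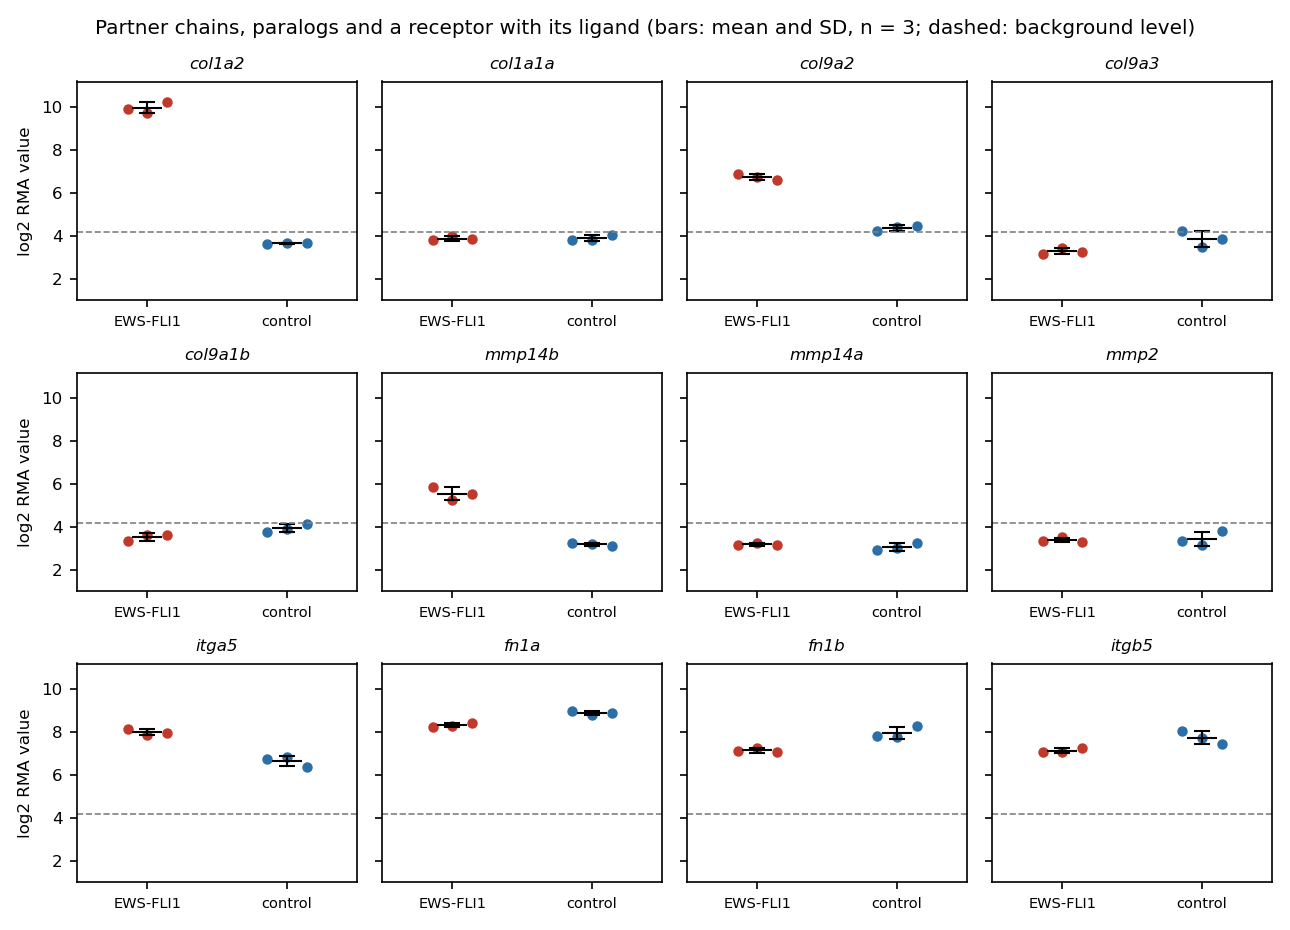
Log2 RMA values (y axis) on each array for chains of one collagen type, paralogs, and the fibronectin receptor subunit with its ligand genes, EWS-FLI1 left and control right, using the brightest probe set of each gene; bars are the mean and SD (n = 3), the dashed line the background level of 4.19. col1a2, col9a2, mmp14b and itga5 are higher in EWS-FLI1, whereas col1a1a, mmp14a and mmp2 stay within background in both groups and fn1a, fn1b and itgb5 are lower in EWS-FLI1.

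Among the MMPs, mmp14b rose most. It encodes a membrane-anchored collagenase, which in mammals cuts fibrillar collagen at the cell surface and, together with TIMP2, activates MMP2. It read 5.88, 5.26 and 5.52 in EWS-FLI1, against 3.26, 3.22 and 3.12 in controls. All control arrays lay within background and all EWS-FLI1 arrays above it. The difference was 2.35 (SE 0.15, adjusted p = 3.6e-05), at least 2.56-fold higher against the background level and 5.11-fold as fitted. Its paralog mmp14a lay within background at both of its probe sets, with differences of 0.11 (95% interval -0.13 to 0.35) and 0.12 (95% interval -0.11 to 0.35).

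mmp13a, a secreted collagenase, read 5.49, 4.92 and 4.93 in EWS-FLI1, against 4.48, 4.58 and 4.31 in controls. It rose by 0.66 (SE 0.16, adjusted p = 0.0294), or 1.58-fold, and EWS-FLI1 replicate 1 was the highest array. The call was lost after dropping EWS-FLI1 replicate 1 or 3 or control replicate 1 or 3 (adjusted p up to 0.0738). The gelatinase gene mmp9 read 4.49, 4.24 and 4.41 in EWS-FLI1, against 4.92, 4.50 and 5.42 in controls. Its difference was -0.57 (95% interval -1.03 to -0.10, adjusted p = 0.119), and it was called lower without control replicate 2 (-0.79, adjusted p = 0.00947).

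The gelatinase gene mmp2 was within background at both probe sets, with differences of -0.04 (95% interval -0.41 to 0.32) and -0.11. mmp11b and mmp17b each differed by less than 0.01. Of the 7 MMP genes, 2 rose, 0 fell and 5 were not called, with a median of 0.00. These counts are 28.6% higher and 0% lower, against 5.65% and 7.12% of all genes. The inhibitor genes timp2a and timp2b were within background in both groups and differed by -0.05 (95% interval -0.33 to 0.23) and -0.01 (95% interval -0.24 to 0.22).

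The ADAM proteases, which shed growth factors and receptors from the cell surface, had 0 calls at 7 probe sets by limma, and 0 at an unadjusted p under 0.05. Among all 15502 probe sets, these counts were 1835 and 3799. adam10b, one of the Notch-cleaving sheddases, read 7.53, 7.30 and 7.5 in EWS-FLI1, against 7.59, 7.59 and 7.65 in controls, a difference of -0.17 (95% interval -0.38 to 0.04). adam10a differed by -0.05 (95% interval -0.30 to 0.21), and the TNF-alpha converting enzyme gene adam17a by 0.10 (95% interval -0.11 to 0.30). adam9b differed by -0.18 (95% interval -0.46 to 0.09). adam9a, adam19b and adam23a were within background and differed by less than 0.1.

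The link proteins, which fasten hyaluronan to proteoglycans, had 0 calls at 7 probe sets by limma and 0 at an unadjusted p under 0.05. Among all 15502 probe sets, these counts were 1835 and 3799. Each of the 6 probe sets of hapln1a, and the 1 of hapln2, was within background, with single arrays between 1.67 and 3.13 and differences of at most 0.14 (hapln1a) and -0.13 (hapln2). The thrombospondins had 0 calls at 3 probe sets by limma and 1 at an unadjusted p under 0.05, thbs4b (-0.25, adjusted p = 0.128). thbs1b differed by -0.17 within background, and thbs3a had equal means of 4.36 in both groups.

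The genes that fold, deposit and bind these proteins were counted in 6 further lists of 114 genes measured in all, in which 5 rose (4.39%) and 13 fell (11.4%), against 5.65% and 7.12% of all genes. After dropping EWS-FLI1 replicate 1 or 3, 3 rose, and the genes that fell numbered 6 or 7 without 1 EWS-FLI1 array and 8 without control replicate 1. In the genome annotation, the called matrix genes had 28 protein-coding neighbours. Of these, 11 were measured, 0 were called by limma and 2 had an unadjusted p under 0.05. Among all 8793 genes, 2334 had an unadjusted limma p under 0.05. casd1, next to col1a2, differed by 0.12 (adjusted p = 0.633), while its neighbour on the other side, bet1, was not measured. sall2 and acin1a, the neighbours of mmp14b, differed by -0.34 (adjusted p = 0.0607) and 0.03.

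Of 16 genes that fold, crosslink or trim collagen, 1 rose, 2 fell and 13 were not called, with a median of -0.15. That is 6.25% higher and 12.5% lower, against 5.65% and 7.12% of all genes. serpinh1b, the collagen chaperone HSP47, read 8.32, 8.73 and 8.80 in EWS-FLI1, against 9.71, 9.25 and 9.89 in controls, and fell by 1.0 (SE 0.18, adjusted p = 0.0089). pcolce2b, which speeds removal of the procollagen C-propeptide, fell by 0.47, a call that was lost without any 1 of the 6 arrays (adjusted p up to 0.112) and with a replicate block (adjusted p = 0.0706). creb3l2, a transcription factor of the collagen secretory route in zebrafish cartilage, rose by 0.72 (adjusted p = 0.0158), a call lost after dropping EWS-FLI1 replicate 1 or 3.

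Of 7 other basement membrane genes, 2 fell (28.6%, against 7.12% of all genes) and 5 were not called. dag1, the laminin receptor dystroglycan, read 6.66, 6.63 and 6.70 in EWS-FLI1, against 7.93, 7.68 and 7.98 in controls, and fell by 1.20 (SE 0.10, adjusted p = 2.0e-04). The collagen-binding protein gene sparc fell by 0.88 (SE 0.14, adjusted p = 0.0048). Of 18 other matrix glycoprotein genes, tgfbi (-0.64) and efemp2b (-0.45) fell (11.1%, against 7.12% of all genes) and 16 were not called. The call of efemp2b was lost after dropping control replicate 1 or any single EWS-FLI1 array (adjusted p up to 0.103).

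Of 29 proteoglycan and hyaluronan genes, 4 fell (13.8%, against 7.12% of all genes) and 25 were not called. The hyaluronan synthase gene has2 read 3.81, 4.06 and 4.02 in EWS-FLI1, against 4.98, 5.26 and 4.55 in controls, and fell by 0.97 with its EWS-FLI1 mean within background. The glypican gene gpc4, needed for convergence and extension in zebrafish, fell by 0.75, the hyaluronan-degrading gene cemip2 by 0.56 and the syndecan gene sdc4 by 0.51. The call of gpc4 was lost after dropping EWS-FLI1 replicate 1 or 3, and that of sdc4 after dropping control replicate 1 or any single EWS-FLI1 array (adjusted p up to 0.0815). A second sdc4 probe set differed by -0.27.

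Of 25 genes for cytoplasmic partners of integrins, 3 rose, 3 fell and 19 were not called (median 0.06). That is 12% higher and 12% lower, against 5.65% and 7.12% of all genes. pxna, the focal adhesion scaffold paxillin, read 9.63, 9.37 and 9.48 in EWS-FLI1, against 6.49, 6.66 and 6.44 in controls, a rise of 2.96 (SE 0.10, adjusted p = 1.0e-06). fhl3b, a LIM-domain gene, read 8.03, 7.99 and 7.86 in EWS-FLI1, against 2.35, 2.97 and 2.63 in controls, and rose by 5.31 (SE 0.15, adjusted p = 3.5e-07). The adaptor gene nck1a rose by 1.36 (SE 0.12, adjusted p = 3.1e-04). fhl3b and nck1a had control means within background. arhgef7a, an exchange factor of focal complexes, fell by 0.48, a call lost after dropping control replicate 1 or any single EWS-FLI1 array (adjusted p up to 0.141). The other fallen genes, fhl3a (-0.45) and bcar1 (-0.40), lost their calls after dropping any of these same 4 arrays, bcar1 also without control replicate 3 (adjusted p up to 0.148), and both with a replicate block (adjusted p = 0.0595 for fhl3a and 0.0741 for bcar1). Both group means of fhl3a lay within background. Another bcar1 probe set differed by 0.08 and lay within background.

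Of 19 genes of other proteases and inhibitors, 18 were not called. The other, serpine2, an inhibitor of thrombin and plasminogen activators, rose by 0.78 (adjusted p = 0.0123). That is 5.26% higher, against 5.65% of all genes. Its call was lost after dropping EWS-FLI1 replicate 1 or 3 (adjusted p up to 0.0645).

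**Figure D4:**
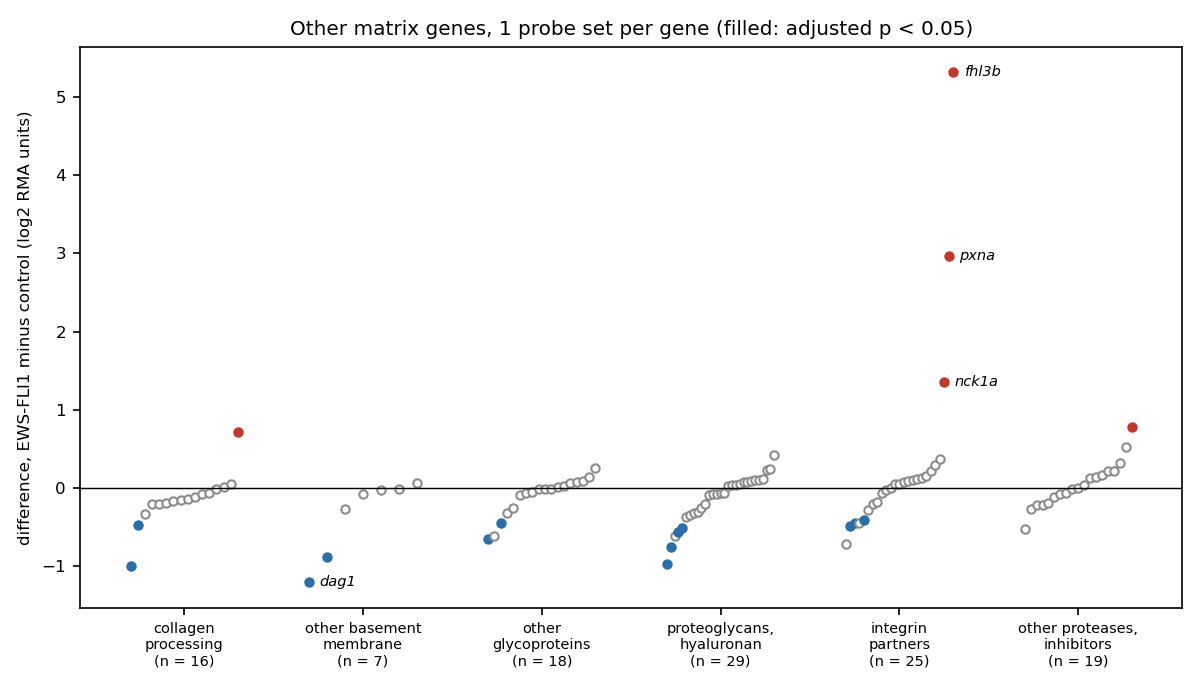
Difference (y axis, EWS-FLI1 minus control, log2 RMA units) of 114 further matrix genes in 6 lists, 1 probe set per gene, ordered within each list by size; filled points were called higher (red, 5) or lower (blue, 13). fhl3b, pxna and nck1a stand above the rest among the integrin partners, and dag1 is the lowest point.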

How the data were processed

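Transcripts were measured on 6 Affymetrix arrays, 3 per group. Per the labels' protocols, 2.5 µg of total RNA was reverse-transcribed from an oligo(dT) primer and biotin-labelled. The authors deposited log2 RMA values, made with the affy package in R 2.2.0 per the submitters' processing notes; the log base was inferred from the range of 1.58 to 13.46. RMA compresses small differences of dim probe sets, and its quantile step makes each difference relative to the whole array. The number of arrays, and no read depth, limits the precision.

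From 15617 probe sets, 115 manufacturer controls were left out. Of the 15502 tested, 4572 had no entry in the annotation and 135 listed several genes. A gene said not to be measured is one that no probe set names alone, so probe sets without a name may still read it. Symbols were updated by Entrez identifier against RefSeq (GRCz12tu), which matched 10711 of 10795 probe sets with 1 gene. No coordinates are given. The 15502 remaining entered a two-sided comparison of 2 group means (lmFit and eBayes of limma 3.58.1, R 4.3.3), tested on simulated data. Neighbours are adjacent protein-coding genes in that table. Figures used matplotlib 3.10.9.

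Members, lists and tests were chosen with earlier results of these data known. The plan named all called members, the 2 largest uncalled differences per family, fixed genes, and up to 4 called genes per further list. Further members and list genes were named beside these. The labels call the samples biological replicates without naming clutches, so p-values measure the spread between pools.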

Additional observations from a re-analysis of the deposited data

How the results depend on the processing

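Of the 15 called matrix probe sets, 9 kept their call in each of the 13 or 14 alternatives followed for single probe sets: both of col1a2, col9a2, col14a1a, col2a1a, fn1a, fn1b, itga5 and mmp14b. No called member changed direction in any of them. The 6 others lost it when at least 1 array was left out. Leaving out 1 array in turn gave 6 to 9 higher and 3 to 9 lower matrix probe sets, 5 to 8 higher and 3 to 9 lower matrix genes, 3 to 7 higher and 6 to 17 lower genes of the 6 further lists, and 450 to 1023 higher and 433 to 1286 lower of all probe sets. A minimum change of 2-fold (treat) left 4 higher matrix probe sets and 0 lower, and an adjusted p under 0.01 left 6 and 3, fewer by construction. Those settings were not among the 13 or 14 alternatives. Of the probe sets that kept their call in those, itga5, col14a1a, col2a1a, fn1a and fn1b were not called by treat. The background level was 3.92 at the 90th percentile and 4.67 at the maximum of the controls, with 40 and 49 matrix probe sets within background in both groups. Same-numbered arrays did not deviate together from their group means (correlations of -0.08, -0.10 and -0.08 over 3 numbers). These are deviations from means of 3 arrays, with 38.3% of all probe sets at or under background. They therefore cannot show whether same-numbered pools shared a clutch, which the labels do not give. A replicate block gave 8 higher and 7 lower matrix probe sets, and 705 and 871 of all. Leaving out dim probe sets gave 7 higher and 4 lower matrix probe sets, as it removed the called lamc3, col15a1b, itga6b and col2a1a themselves. Without detection calls, changes of genes within background in both groups cannot be sized.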
